A study of Mus musculus with 9 samples.

Results

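Mitosis genes were followed cell by cell in mouse embryonic fibroblasts of the line NIH3T3-CG treated with SAG, a small molecule that activates Smoothened and so switches on Hedgehog signalling. The 40 genes, members below, were taken by symbol from a list of genes of the mitotic machinery. All 40 were found among the 30407 genes that the count tables of both experiments share, and all 40 passed the filter on low counts. In Experiment 2 the same cell line was sampled after 0, 19 and 30 h of SAG with Dox, and after 0, 19 and 30 h of SAG without Dox. In Experiment 1, for which the labels mention no Dox, it was sampled after 0, 17 and 30 h of SAG. Each of these 9 groups was 1 library of the 10x Genomics 3' system, in which a unique molecular identifier (UMI) marks each captured transcript. The labels do not state what Dox induces, and no library was held without SAG for the later times, so SAG and time in culture cannot be told apart. Nothing in them says that cultures were separate. No group had a replicate library, so the spread behind each p-value is not one between replicates. In the fit for Dox with SAG time as a term, it is how far the Dox difference departed from being equal over the times. In the fit over all 9 libraries, it is how far the difference between the experiments without Dox departed from being equal over the times. Either spread may be technical.

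A barcode was kept as a cell from 5000 UMIs upwards and with no more than 10% of them mitochondrial, which left 571 to 6520 cells and 19407468 to 105444824 UMIs a library. Of the kept cells with at least 10000 UMIs, 99.5% to 100% a library held UMIs of at least 3 of 9 fibroblast markers. Between 0.184% and 3.40% held 3 of 6 smooth muscle or myofibroblast markers, and none held 3 macrophage, endothelial, epithelial or neural markers. The 19 h library without Dox was shallow, with a median of 8025 UMIs per kept cell against 28335 to 48188 in the other 8. Cells with under 1% mitochondrial UMIs made up 17.9% to 19.7% of the kept cells in 3 libraries, both SAG-treated libraries with Dox and the 30 h library without Dox of Experiment 2, and at most 1.41% in the other 6. A pair of libraries shared at most 9 barcodes among kept cells (0.302% of the smaller library), and the largest share of a smaller library was 0.513%, from 3 barcodes of another pair.

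Entry into mitosis is driven by Cdk1 bound to A- and B-type cyclins, and the chromosomes are then condensed, attached to the spindle through kinetochores and held until the spindle checkpoint is satisfied. Exit follows when the anaphase-promoting complex (APC/C), a ubiquitin ligase, marks cyclins and other mitotic proteins for destruction. Most genes of this machinery are transcribed late in the cell cycle, by complexes of MuvB proteins with B-MYB and FOXM1 that act at a promoter element called the cell cycle genes homology region (CHR), often beside CCAAT boxes bound by NF-Y. In resting cells the same element holds the repressor complex DREAM.

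Promoter windows, from 250 bases before to 50 bases after a RefSeq start on GRCm38.p6, were given for 35 of the 40 members (37 windows). The CHR core TTTGAA, searched on both strands, was in 29 of the 37 windows (78.4%), against 17.9% of the 32851 windows of all genes. CCAAT, also on both strands, was likewise in 29 windows (78.4%, against 37.4% of all windows), and both motifs together were in 25 (67.6%, against 6.95%). In Ube2c a CCAAT on each strand shares bases (ccaattgg). Of 48 windows of DNA replication genes 5 held TTTGAA (10.4%), and of 89 windows of other mitosis genes 45 did (50.6%). The E box CACGTG, searched for comparison, was in 2 member windows (5.41%, against 7.15%). TTTAAA, also searched, was in 9 (24.3%, against 13.2%). A match describes the letters of the window and does not show that a factor binds there. Members named below differ in this: the windows of Nusap1, Tacc3 and Birc5 held neither motif. Those of Cks2, Ccnb1 and Cenpe held CCAAT without TTTGAA. The windows of 5 members, all with both motifs, are printed as examples, 5' to 3' on the strand of the gene. TTTGAA and CCAAT, or their reverse complements TTCAAA and ATTGG, are in capitals. Ube2c and Cdc20 act with the APC/C, Ccnb2 and Cdk1 form the mitotic kinase, and Bub3 is a checkpoint protein whose RNA lay mostly outside the cells rich in mitotic transcripts.
Ube2c, chr2:164769679-164769978, plus strand: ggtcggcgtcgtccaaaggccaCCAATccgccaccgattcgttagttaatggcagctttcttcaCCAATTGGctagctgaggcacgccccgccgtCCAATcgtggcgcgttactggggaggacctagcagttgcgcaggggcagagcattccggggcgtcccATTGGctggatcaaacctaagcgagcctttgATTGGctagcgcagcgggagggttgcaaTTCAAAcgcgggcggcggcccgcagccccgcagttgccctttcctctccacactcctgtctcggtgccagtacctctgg
Cdc20, chr4:118437294-118437593, minus strand: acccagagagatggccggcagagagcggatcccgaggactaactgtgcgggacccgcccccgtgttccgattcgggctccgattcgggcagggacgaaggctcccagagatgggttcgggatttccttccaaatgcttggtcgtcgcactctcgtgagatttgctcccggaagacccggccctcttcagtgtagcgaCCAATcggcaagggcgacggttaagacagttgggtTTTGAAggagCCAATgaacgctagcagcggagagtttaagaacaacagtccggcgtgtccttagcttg
Ccnb2, chr9:70421505-70421804, minus strand: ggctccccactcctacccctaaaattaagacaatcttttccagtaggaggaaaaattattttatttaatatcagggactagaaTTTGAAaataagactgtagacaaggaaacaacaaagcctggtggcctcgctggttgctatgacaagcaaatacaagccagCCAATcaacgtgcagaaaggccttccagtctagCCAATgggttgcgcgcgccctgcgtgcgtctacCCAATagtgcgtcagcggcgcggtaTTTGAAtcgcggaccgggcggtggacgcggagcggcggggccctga
Cdk1, chr10:69352863-69353162, minus strand: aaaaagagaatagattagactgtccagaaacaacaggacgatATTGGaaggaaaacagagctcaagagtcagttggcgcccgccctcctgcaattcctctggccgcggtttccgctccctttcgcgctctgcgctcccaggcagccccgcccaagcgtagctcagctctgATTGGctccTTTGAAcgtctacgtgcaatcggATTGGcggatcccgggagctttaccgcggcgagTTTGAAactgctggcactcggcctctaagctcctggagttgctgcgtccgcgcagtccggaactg
Bub3, chr7:131560120-131560419, plus strand: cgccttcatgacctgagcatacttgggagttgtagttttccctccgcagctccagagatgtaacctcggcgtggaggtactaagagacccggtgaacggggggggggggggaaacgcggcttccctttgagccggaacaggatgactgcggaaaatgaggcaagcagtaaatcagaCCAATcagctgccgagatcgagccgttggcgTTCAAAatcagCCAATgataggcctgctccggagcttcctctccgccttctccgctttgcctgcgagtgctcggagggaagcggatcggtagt
Cdc20 has its CHR core 18 bases before the start, between CCAAT boxes at 53 and 8 bases before it, and Ube2c has its core 29 bases before the start with 6 CCAAT boxes upstream. Bub3 holds the same pair of motifs as Cdc20, with the core 43 bases before the first of its annotated starts.

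Levels are given as CPM, UMIs of a gene scaled to a common total of the library, and for comparisons between libraries as TMM-scaled CPM, in which the library size is multiplied by a TMM factor that centres the bulk of genes. The factors were 0.898, 1.19 and 1.18 at 0, 19 and 30 h with Dox, 0.694, 0.814 and 0.987 at the same times without Dox, and 1.17, 1.11 and 1.10 at 0, 17 and 30 h of Experiment 1. They therefore differ between the groups compared, and counts of called genes are given with and without them, whereas levels of single genes are on the TMM scale. On the CPM scale the members together made up 550, 645 and 670 CPM at 0, 19 and 30 h with Dox, 668, 660 and 695 CPM without Dox, and 1380, 1410 and 1557 CPM in Experiment 1. On the TMM scale their sums were 613, 544 and 569 with Dox, 963, 810 and 705 without Dox, and 1181, 1272 and 1410 in Experiment 1. Experiment 1 was highest on both scales, whereas the Dox libraries lay below all libraries without Dox only on the TMM scale. Exact 95% Poisson intervals, which cover counting error only, ran for example from 543 to 558 CPM at 0 h with Dox. In such sums fewer cells in mitosis and less RNA per cell cannot be told apart. By GENCODE vM21 on GRCm38 (mm10), the build of the files, Ube2c lies at chr2:164769898-164778822 on the plus strand, Nusap1 at chr2:119618298-119651244 on the plus strand and Top2a at chr11:98992943-99024189 on the minus strand.

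**Figure D1:**
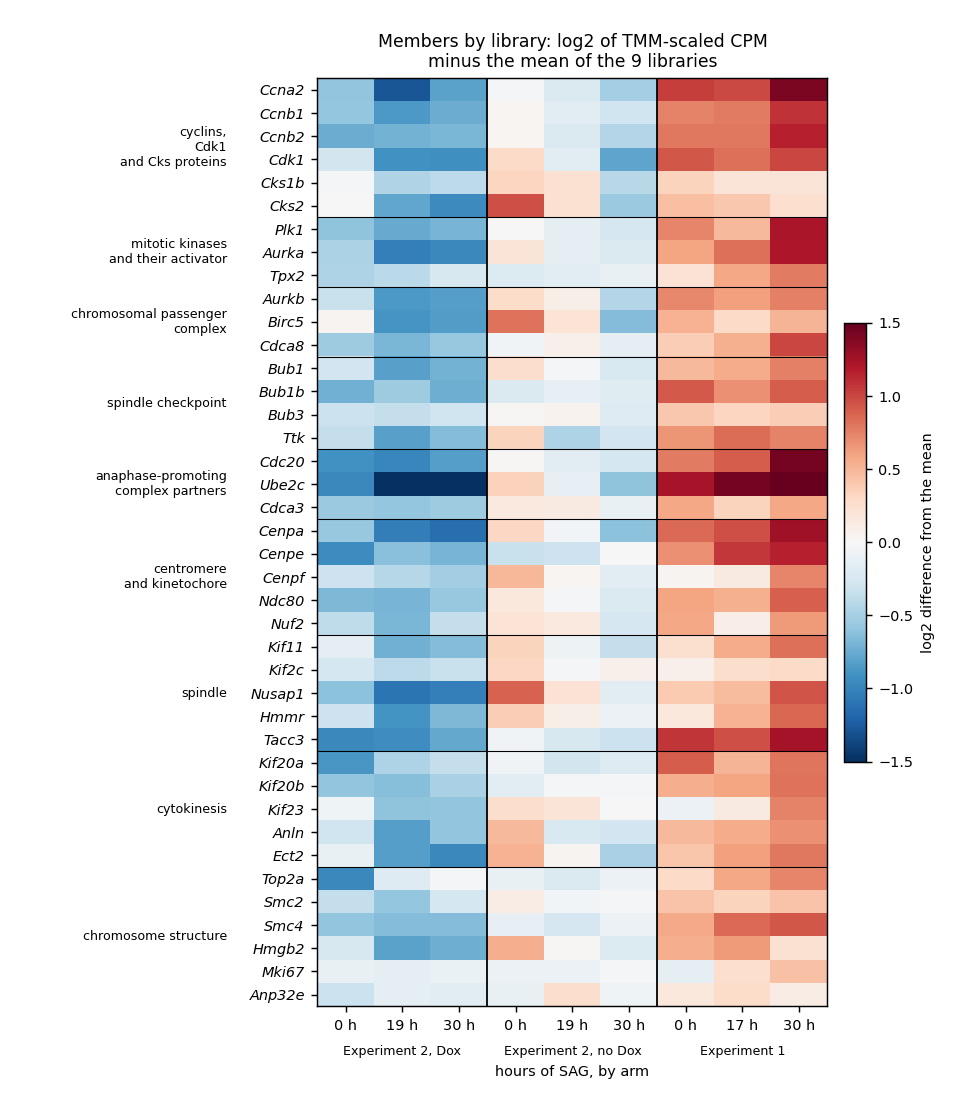
Level of each of the 40 members in each of the 9 libraries, as log2 of TMM-scaled CPM minus the gene's mean over the 9 libraries; rows are grouped by role, columns by arm and hours of SAG, red is above and blue below the mean. Ube2c spans the range from 13.4 TMM-scaled CPM at 30 h with Dox to 148 at 30 h of Experiment 1, whereas the rows of Mki67 and Anp32e are pale throughout.

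Under Dox the mitosis genes were lower as a group. Over the 3 SAG times of Experiment 2, 35 of the 40 members fell and none rose with Dox (edgeR quasi-likelihood F test on the summed counts, Benjamini-Hochberg adjusted p threshold 0.05, SAG time as a term), where 38.4% of the 13645 genes tested were called and 19.2% were lower. The fitted log2 change was below 0 in all 40, with a median of -0.56 against 0.01 over all genes. DESeq2 called 31 of the 40, all lower (16.2% of all genes). The count depends on the terms of the fit: without SAG time 1 member was called (Cdc20), and with additive terms over all 9 libraries 17. The shares of all genes called in these fits are not given, so the drop is not read as particular to the members. Without TMM factors the median of all genes moved to 0.41 and that of the members to -0.16. The members' median minus that of all genes was -0.57 on both scales, but 7 members fell on the scale of library sizes alone, where 3.55% of all genes did and 50.9% rose, and 7 members had a value above 0. All 5 spindle proteins, all 5 genes of the centromere and kinetochore, all 5 cytokinesis genes, all 6 cyclin, Cdk1 and Cks genes, all 3 chromosomal passenger genes and all 3 partners of the APC/C were among the 35.

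The APC/C partners had the lowest median log2 change of the roles, -0.76. Ube2c, the ubiquitin-conjugating enzyme that serves the APC/C, stood at 20.9, 13.9 and 13.4 TMM-scaled CPM at 0, 19 and 30 h with Dox, against 52.2, 37.5 and 27.0 without Dox. All Dox values lay below all values without Dox, and the fitted log2 change was -1.26 ± 0.11 (SE; edgeR adjusted p = 5.6e-12). Cdc20, the coactivator of the APC/C and the target of the spindle checkpoint, stood at 8.53, 8.12 and 8.998 TMM-scaled CPM with Dox and 16.1, 14.1 and 13.3 without Dox. The groups did not overlap, and the log2 change was -0.76 ± 0.12 (edgeR adjusted p = 1.6e-06). Cdca3, an APC/C substrate, had a log2 change of -0.61 ± 0.12 (edgeR adjusted p = 8.5e-05).

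Among the spindle proteins, Nusap1, which bundles microtubules near the chromosomes, was at 4.65, 3.33 and 3.496 TMM-scaled CPM at 0, 19 and 30 h with Dox, against 13.2, 8.31 and 6.35 without Dox. Its log2 change of -1.22 ± 0.13 (edgeR adjusted p = 2.9e-10) was the second largest of the members. Hmmr, another microtubule-associated protein of the spindle, was at 11.002, 7.35 and 8.55 with Dox and 17.7, 14.5 and 12.8 without Dox, a log2 change of -0.76 ± 0.12 (edgeR adjusted p = 1.7e-06). For both genes every Dox library lay below every library without Dox. Cenpa, the histone H3 variant that marks centromeres, was at 17.5, 12.6 and 11.8 TMM-scaled CPM with Dox and 32.1, 25.2 and 16.9 without Dox. The 0 h library with Dox lay above the 30 h library without Dox, and at each time Dox was lower, by -0.80 ± 0.11 on the log2 scale (edgeR adjusted p = 3.8e-07).

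Cks2, a small subunit that binds Cdk1, was at 29.5, 17.3 and 15.2 TMM-scaled CPM at 0, 19 and 30 h with Dox and 57.7, 34.7 and 20.1 without Dox, with a log2 change of -0.80 ± 0.12 (edgeR adjusted p = 8.5e-07). Both arms declined with time in these libraries, and at each time Dox was the lower one. Aurka, the kinase of centrosomes and spindle poles, was at 3.15, 2.15 and 2.23 with Dox and 5.01, 3.95 and 3.76 without Dox, a log2 change of -0.77 ± 0.14 (edgeR adjusted p = 2.6e-05). Hmgb2, a DNA-bending chromatin protein, was at 87.8, 59.6 and 62.5 with Dox and 151, 105 and 90.2 without Dox, a log2 change of -0.71 ± 0.13 (edgeR adjusted p = 1.6e-05). Of these 8 genes named in full, only Aurka was not also called without TMM factors (log2 change -0.38, edgeR adjusted p = 0.066). The other 7 were the members called there, with log2 changes of -0.86 for Ube2c, -0.83 for Nusap1, -0.41 for Cenpa, -0.40 for Cks2, -0.37 for Cdc20, -0.36 for Hmmr and -0.32 for Hmgb2.

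The remaining called members had log2 changes between -0.69 and -0.33. Birc5, Aurkb and Cdca8, subunits of the chromosomal passenger complex, were at -0.69, -0.66 and -0.56. Plk1, the kinase that acts with Cdk1 at mitotic entry, was at -0.56. Ccna2, Ccnb1, Ccnb2 and Cdk1, which form the mitotic cyclin-dependent kinases, were at -0.64, -0.58, -0.49 and -0.48. The 2 condensin subunits Smc2 and Smc4 were at -0.42 and -0.48. The members that were not called were Tpx2, which activates Aurka, Bub3, Top2a, Mki67 and Anp32e. Mki67, a protein that coats mitotic chromosomes and the gene behind the Ki-67 label of cycling cells, was nearly level, at 17.3, 16.9 and 17.4 TMM-scaled CPM with Dox and 17.6, 17.6 and 18.5 without Dox (log2 change -0.06 ± 0.11, edgeR adjusted p = 0.70). The other 4 had log2 changes between -0.28 and -0.21. All 5 had values above 0 with library sizes alone, as did Cks1b (0.060) and Kif20a (0.021), which were called with TMM factors. In the matched pairs of libraries, 38 members were lower with Dox at all 3 times on the TMM scale, and 21 on the CPM scale. Higher with Dox at all 3 times were 0 members on the TMM scale and 4 on the CPM scale. The shares of all genes that did so are not given.

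**Figure D2:**
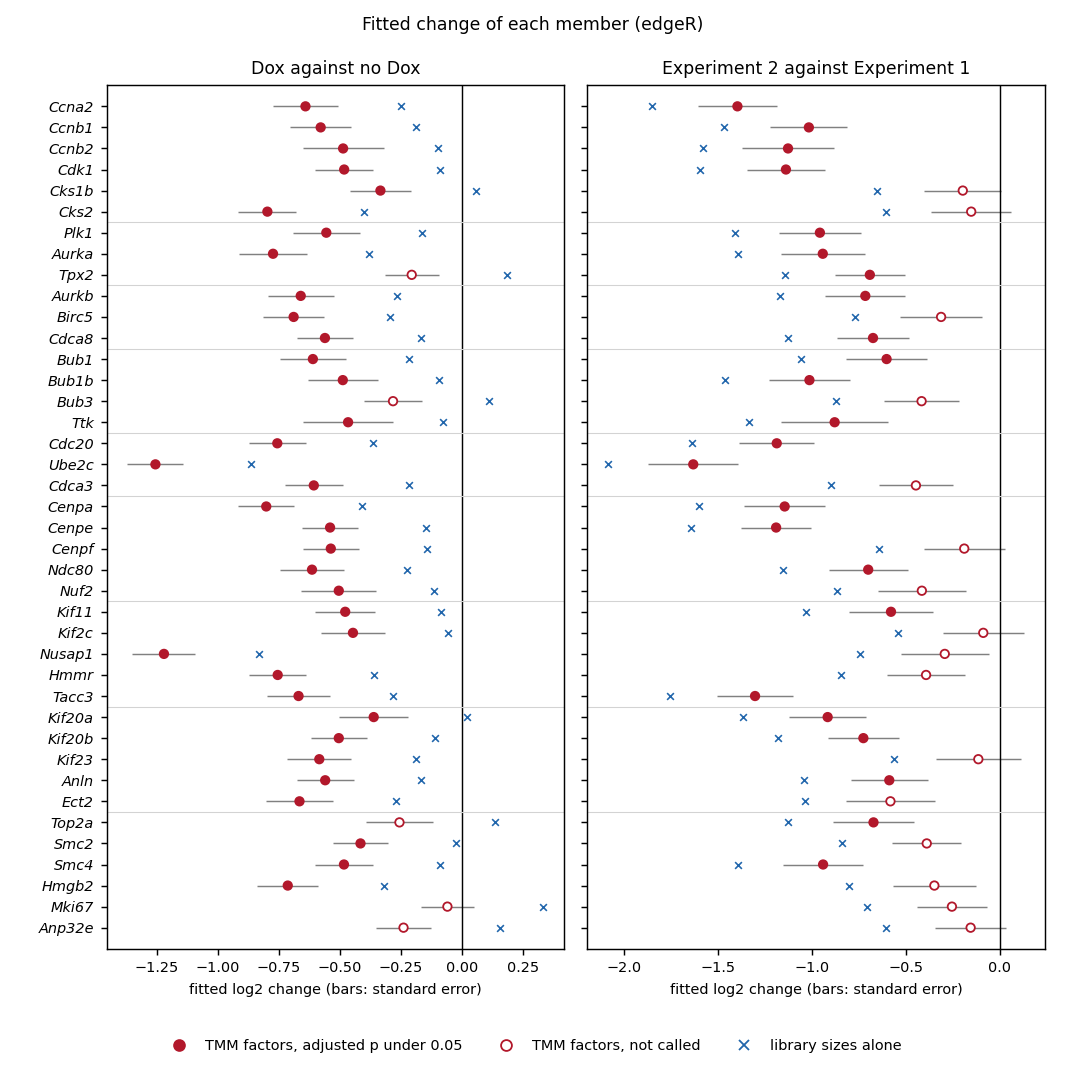
Fitted log2 change of each of the 40 members with Dox against no Dox (left, 6 libraries) and in Experiment 2 against Experiment 1 (right, 9 libraries), with standard errors; filled circles are called with TMM factors, open circles are not, and crosses are the fit with library sizes alone. All circles lie below 0, and the crosses lie to the right of the circles for Dox and to the left of them for the experiments.

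Other genes of mitosis, a list of 98 outside the members, showed the same lean under Dox, with 55 lower, 2 higher and a median log2 change of -0.47 (edgeR, all 98 tested). With library sizes alone 11 were lower and 14 higher. Those named by rule were Tuba1c, an alpha-tubulin (-1.29 ± 0.12), Pttg1, the securin that holds separase (-1.01 ± 0.12), Prc1, which bundles microtubules of the central spindle (-0.998 ± 0.11), and Cenpw, a centromere protein (-0.86 ± 0.11), all with edgeR adjusted p of 5e-08 or less. The 2 that rose were Cdc25a, a phosphatase that activates cyclin-dependent kinases (0.40 ± 0.12, edgeR adjusted p = 0.0059), and Psrc1, a microtubule-associated protein (0.37 ± 0.12, edgeR adjusted p = 0.0094). Of 50 DNA replication genes 12 were lower and 1 higher, with a median of -0.18, where 19.2% of all genes were lower. With library sizes alone 1 was lower and 7 were higher, with a median of 0.21 against 0.41 over all genes, so that their direction turns with the scale.

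Between experiments the difference was larger for some members and differently spread over them. Without Dox, 24 of the 40 members were lower in Experiment 2 than in Experiment 1 and none was higher (edgeR, coefficient of experiment over all 9 libraries), where 38.7% of 14354 genes were called and 18.5% were lower. The median log2 change of the members was -0.67, against 0.02 over all genes. With library sizes alone these medians were -1.13 and -0.43, their difference -0.69 on both scales, and 34 members were lower, where 31.2% of all genes were. DESeq2 called 20 (14.6% of all genes lower). All libraries of Experiment 2 lay below all libraries of Experiment 1 for 25 members on the TMM scale and for 38 on the CPM scale. The share of all genes that did so is not given, and without TMM factors the median of all genes was itself below 0. These 2 counts are thus not read as particular to the members.

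Ube2c again moved most, at 52.2, 37.5 and 27.0 TMM-scaled CPM at 0, 19 and 30 h of Experiment 2 without Dox, against 96.5, 110 and 148 at 0, 17 and 30 h of Experiment 1. The gap widened over the times, and the log2 change was -1.63 ± 0.24 (edgeR adjusted p = 2.7e-06). Ccna2, cyclin A2, was at 7.60, 6.71 and 5.45 in Experiment 2 and 15.9, 15.4 and 20.6 in Experiment 1 (log2 change -1.39 ± 0.21, edgeR adjusted p = 4.0e-06). Tacc3, which stabilises spindle microtubules, was at 6.57, 5.75 and 5.43 in Experiment 2 and 14.3, 13.3 and 16.2 in Experiment 1 (-1.30 ± 0.20, edgeR adjusted p = 6.7e-06). Cdc20 was at 16.1, 14.1 and 13.3 in Experiment 2 and 27.5, 29.95 and 43.1 in Experiment 1 (-1.19 ± 0.20, edgeR adjusted p = 2.0e-05). None of these 4 overlapped between the experiments.

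Cenpe, a kinesin of the kinetochore, was at 13.9, 14.2 and 17.5 TMM-scaled CPM in Experiment 2 without Dox and 28.2, 36.8 and 39.7 in Experiment 1 (log2 change -1.19 ± 0.19, edgeR adjusted p = 7.8e-06). Cdk1 was at 21.8, 15.97 and 10.3 in Experiment 2 and 34.1, 31.5 and 35.6 in Experiment 1 (-1.14 ± 0.21, edgeR adjusted p = 6.1e-05). Cenpa was at 32.1, 25.2 and 16.9 in Experiment 2 and 46.7, 50.4 and 62.6 in Experiment 1 (-1.14 ± 0.22, edgeR adjusted p = 1.0e-04). Ccnb1, cyclin B1, was at 7.18, 6.23 and 5.69 in Experiment 2 and 11.8, 12.05 and 14.8 in Experiment 1 (-1.01 ± 0.20, edgeR adjusted p = 2.2e-04). All 3 genes of the group of mitotic kinases and their activator (Plk1, Aurka, Tpx2) were lower, at -0.96, -0.94 and -0.69. The order of the members was not that under Dox: Nusap1 and Cks2, near the top there, had log2 changes of -0.29 ± 0.23 and -0.15 ± 0.21 here and were not called. With library sizes alone the 8 members given in full were lower as well, from -2.08 for Ube2c to -1.47 for Ccnb1, and Nusap1 was called too (-0.75, edgeR adjusted p = 0.044), while Cks2 was not (-0.61, edgeR adjusted p = 0.083). Whether the changes of a gene differ between the 2 comparisons was not tested, and the comparisons share the 3 libraries without Dox of Experiment 2. The experiments also differ in sequencing depth and in the version of the counting software, and their part in the result cannot be told apart from that of the cells.

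Leaving out either library of the middle time (17 h of Experiment 1 or 19 h of Experiment 2) brought the count of lower members down to 13 and 14. The share of all genes that were lower in either of these fits is not given. Of the 98 other mitosis genes, 36 were lower and 5 higher in Experiment 2 with all libraries, where 18.5% of all genes were lower. Without TMM factors 58 were lower and 1 higher, where 31.2% of all genes were lower. Nek2, a centrosome kinase (-1.85 ± 0.25), Cdc25b, a phosphatase that starts mitosis (-1.70 ± 0.20), Ckap2, a spindle protein (-1.64 ± 0.22), and Bora, a cofactor of Aurka (-1.56 ± 0.22), led those that were lower, with edgeR adjusted p of 1.1e-06 or less. Tuba1c (1.19 ± 0.20), Cenpm (0.91 ± 0.22), Spc24 (0.79 ± 0.25) and Haus1 (0.68 ± 0.21) led those that were higher. On the TMM scale Tuba1c thus stood higher in Experiment 2 than in Experiment 1 and lower with Dox than without it. Of 57 histone genes tested, 47 were higher and 1 lower in Experiment 2, where 38.7% of all genes were called. Their median log2 change was 2.54, and 2.04 with library sizes alone. Of 50 DNA replication genes 4 were higher and 8 lower, with a median of -0.03, and -0.49 with library sizes alone. Other genes of the cell cycle thus did not all share the direction of the members, and the source was not tested.

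Over SAG time no member was called. At 30 h against 0 h without Dox (2 libraries a time, experiment as a term) edgeR called 0 of 40 members, where 0.446% of 14354 genes were called; 2 members were lower at unadjusted p under 0.05, and DESeq2 called 0 (0.0836% of all genes), with 3 lower unadjusted. At 17 to 19 h against 0 h it called 0 (0.111% of all genes), at 30 h against 17 to 19 h 0 (0.00697%), and for the difference that Dox made to the 30 h response 0 (0% of all genes). DESeq2 called 0 members in these 3 as well, where it called 0.0488%, 0% and 0% of all genes. No member reached an unadjusted p under 0.05 in these 3 comparisons by either tool. The median log2 change of the members was -0.05, -0.12, 0.08 and -0.13 in these 4 comparisons, against -0.01, -0.02, 0.00 and 0.03 over all genes. No member was called with library sizes alone either, and these medians were 0.16, -0.04, 0.20 and 0.05, against 0.21, 0.06, 0.15 and 0.19 over all genes. The members' median thus changed sign with the scale at 30 h against 0 h and for the difference with Dox. Counts were also simulated for this layout, with the same spread for all genes (dispersion 0.05) and no difference between the experiments. In them edgeR recovered 23% of genes changed 2-fold and 96% of those changed 4-fold at 30 h. The spread was set and not estimated from these libraries. How many 2-fold changes were missed here is therefore not known, and an uncalled member is not shown to be unchanged.

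On the TMM scale the courses differed in sign between the experiments. From 0 to 30 h, 8 members were higher and 32 lower in Experiment 2 without Dox (median log2 change -0.35), 15 were higher and 25 lower with Dox (median -0.11), and 32 were higher and 8 lower in Experiment 1 (median 0.30). Of all genes tested, 50.7%, 51.5% and 46.9% were higher in these 3 arms. On the TMM scale 26 members were lower in Experiment 2 without Dox and higher in Experiment 1, 6 were lower in both and 6 higher in both. The shares of all genes with these pairs of signs are not given. On the CPM scale the medians were 0.10 without Dox and 0.23 with Dox in Experiment 2, beside 0.38 and 0.30 over all genes, and 0.23 in Experiment 1, beside -0.07 over all genes. The opposite signs thus depend on the scale, while the members were below the median of all genes in Experiment 2 and above it in Experiment 1 on either.

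At 17 to 19 h the largest fitted values were -0.45 for Birc5 and -0.43 for Cks2 on the lower side and 0.25 for Anp32e and 0.21 for Cenpe on the higher, all with edgeR adjusted p of 1.0. From 17 to 19 h to 30 h they were -0.44 for Cks2 and 0.31 for Plk1, and for the difference with Dox -0.80 for Kif23 and 0.72 for Top2a.

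Cks2 had the lowest fitted value at 30 h, with 57.7, 34.7 and 20.1 TMM-scaled CPM at 0, 19 and 30 h of Experiment 2 without Dox, and 40.4, 39.0 and 35.1 at 0, 17 and 30 h of Experiment 1. Its log2 value of -0.87 ± 0.26 was not called (edgeR adjusted p = 0.15). The course was steep in Experiment 2 and shallow in Experiment 1. Birc5 was at 27.9, 18.3 and 10.1 in Experiment 2 without Dox and 22.7, 19.4 and 22.7 in Experiment 1 (-0.72 ± 0.27, edgeR adjusted p = 0.32). Hmgb2 was at 151, 105 and 90.2 in Experiment 2 without Dox and 151, 161 and 121 in Experiment 1 (-0.54 ± 0.27, edgeR adjusted p = 0.51), and Cdk1, given above, had -0.50 ± 0.25 (edgeR adjusted p = 0.51). With the 0 h library of Experiment 1 left out, edgeR called Cks2 (-1.36), Birc5 (-1.18) and Cdk1 (-0.87) lower, and with its 30 h library left out it called Cks2 (-1.37) and Birc5 (-1.38). In both of those fits the change rests mainly on Experiment 2. The highest fitted values were 0.41 for Cenpe, 0.32 for Tpx2, 0.32 for Mki67 and 0.28 for Cdca8, with edgeR adjusted p between 0.54 and 0.71. Tpx2 was at 17.9, 18.4 and 19.1 in Experiment 2 without Dox and 23.95, 31.0 and 35.5 in Experiment 1. Mki67 was at 17.6, 17.6 and 18.5 in Experiment 2 and 17.1, 22.3 and 25.5 in Experiment 1. Cdca8 was at 17.9, 19.6 and 16.7 in Experiment 2 and 23.95, 26.8 and 37.0 in Experiment 1. On the TMM scale all 4 genes were higher at 30 h than at 0 h in Experiment 1, by more than in Experiment 2. On the CPM scale the log2 changes in Experiment 2 without Dox and in Experiment 1 were 0.81 and 0.40 for Cenpe, 0.58 and 0.48 for Tpx2, 0.56 and 0.49 for Mki67, and 0.40 and 0.54 for Cdca8, so that this order held for Cdca8 alone.

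The levels of a library sum over cells that hold many mitotic transcripts and cells that hold few. To compare cells, those with at least 10000 UMIs were thinned to 10000 UMIs each. Cells with UMIs of 4 or more members made up 13.6%, 23.8% and 23.7% of the cells at 0, 19 and 30 h with Dox, 16.7%, 21.6% and 19.8% without Dox, and 49.7%, 47.1% and 44.4% at 0, 17 and 30 h of Experiment 1. Unthinned, the shares were 45.3% to 93.03% over the 9 libraries. Thinning left out 60.0% of the kept cells of the 19 h library without Dox and 1.71% to 10.8% of those of the others. Averaged over the 3 times, the thinned share was 0.99 ± 3.63 percentage points higher with Dox than without it (SD over 3 times), and the difference of Experiment 2 from Experiment 1 was -27.7 ± 4.67 points. Averaged over the 3 arms, it was 3.42 ± 7.09 points higher in SAG-treated libraries than at 0 h (SD over 3 arms). At this depth and limit, only the difference between experiments was larger than its SD. The sizes rest on both choices: Dox minus no Dox was -5.39 points at 5000 UMIs, -3.06 with 6 members and 15.6 unthinned, so that its sign turned, and Experiment 2 minus Experiment 1 was -7.34 points at 5000 UMIs and -9.35 with 6 members. The difference of SAG-treated libraries from 0 h was 0.52 points at 5000 UMIs, -0.43 with 6 members and 11.96 unthinned.

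A count of 4 members did not mark a separate population. The number of members per cell had a single peak at 1 to 3 members in every library, whose upper side the limit of 4 cuts through, and beyond about 10 members a flat tail that reached 38. The members within cells of 4 or more summed to 19.2, 15.9 and 15.2 UMIs per 10000 at 0, 19 and 30 h with Dox, 22.9, 19.9 and 17.8 without Dox, and 19.6, 21.5 and 25.5 in Experiment 1. This level was thus lower at each later time in Experiment 2, and higher in Experiment 1. Most cells past the limit of 4 held 4 to 9 members, such as 374 of 456 in the 0 h library of Experiment 1. Cells with 10 or more members, a limit chosen after these distributions were seen, made up 4.15%, 5.01% and 4.32% at 0, 19 and 30 h with Dox, 7.37%, 8.51% and 5.23% without Dox, and 8.94%, 9.02% and 10.9% in Experiment 1. With this limit Dox was lower at each of the 3 times, with a mean difference of -2.54 ± 1.42 percentage points, and Experiment 2 differed from Experiment 1 by -2.59 ± 2.73 points, within its SD (SD over 3 times). Each group is 1 library at a time and its cells are not replicates, and these shares, which are scores over the members, were not tested.

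**Figure D3:**
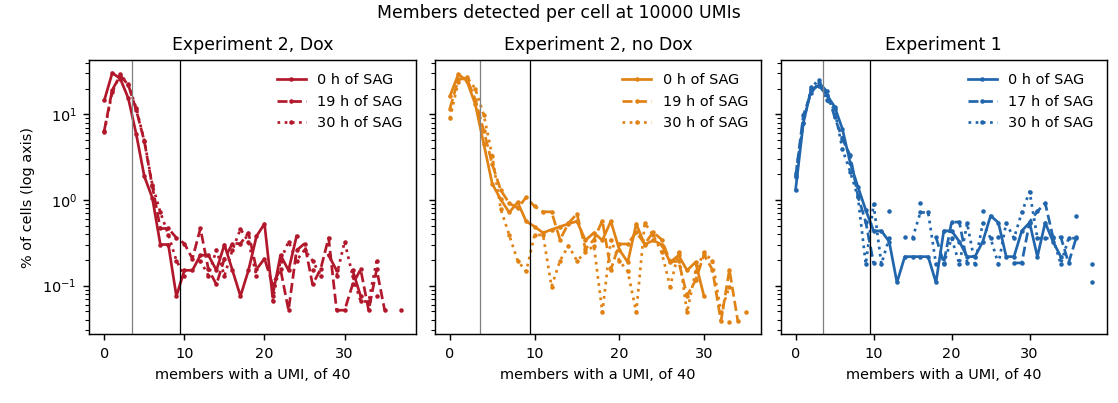
Share of cells (log axis) by the number of the 40 members with at least 1 UMI, in cells thinned to 10000 UMIs, for each library; the grey line marks the limit of 4 members and the black line that of 10. Each curve has its peak below the limit of 4 and a flat tail past 10, and the curves of Experiment 1 peak further to the right.

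**Figure D4:**
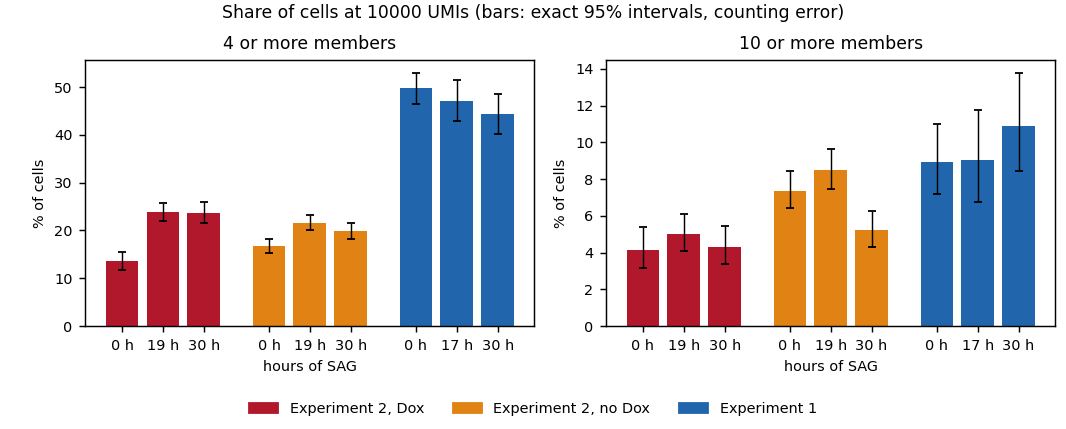
Share of cells with 4 or more members (left) and with 10 or more (right) at 10000 UMIs, per library, with exact 95% binomial intervals that cover counting error only. The bars of Experiment 1 stand at 44.4% to 49.7% on the left, far above the others, and at 8.94% to 10.9% on the right, close to the libraries without Dox at 0 and 19 h.

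Within cells with 10 or more members, the members summed to 50, 53.0 and 56.5 UMIs per 10000 at 0, 19 and 30 h with Dox, 42.9, 39.98 and 52.8 without Dox, and 77.1, 82.1 and 82.4 in Experiment 1. In the other cells the sums were 2.11, 3.06 and 3.14 with Dox, 2.19, 2.55 and 2.55 without Dox, and 4.82, 4.72 and 4.44 in Experiment 1. Members were thus lower in both kinds of cells in Experiment 2 than in Experiment 1. With Dox the level within the cells of 10 or more members was higher than without it at each time, and their share was lower. The limit itself enters these levels, since a cell with few member UMIs cannot pass it. Cells with 10 or more members held 44.8% to 50.7% of all member UMIs with Dox, 53.4% to 60.9% without Dox and 61.1% to 69.4% in Experiment 1.

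The share of a member's UMIs that lay in such cells ranged widely over the members. For each member, cells with 10 or more of the other 39 members were compared with the rest, with the member itself left out of the count. Hmmr had 94.9% of its UMIs in those cells (median of 9 libraries), where it was detected in 55.0% of cells against 0.544% of the rest. Kif11, the motor that separates the spindle poles, had 92.5%, Plk1 91.8%, Kif2c, a kinesin that takes microtubules apart, 91.8%, and Bub1b, a checkpoint kinase homologue, 91.7%. Of the 40 members, 23 had over 80% of their UMIs there and 12 had 50% to 80%. The 5 below 50% were Hmgb2 (41.1%), the condensin subunit Smc4 (39.98%), Cks1b (31.9%), the H2A.Z chaperone Anp32e (20.9%) and Bub3 (11.97%). Bub3 was detected in 57.6% of cells with 10 or more other members and in 37.8% of the rest. No cell type in these libraries should lack the members, so the share of cells that free RNA alone would give a UMI was not measured, and a UMI in the rest is not read as expression by that cell. All 40 members were higher in those cells in all 9 libraries, which the choice of members makes likely, and no test was made. The 27 members with TTTGAA in a promoter window had a median of 82.5% of UMIs in those cells, and the 8 with a window without it 86.3%.

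Top2a, the topoisomerase that untangles chromosomes, and Ube2c had different courses outside the cells with 10 or more members. Both genes were picked for this description after their values were seen. In cells with under 10 other members, Top2a was detected in 7.24%, 31.5% and 32.8% at 0, 19 and 30 h with Dox, in 6.72%, 11.7% and 16.9% without Dox in Experiment 2, and in 19.5%, 27.1% and 24.6% at 0, 17 and 30 h of Experiment 1. The Dox libraries at 19 and 30 h were thus highest, but Experiment 1 came close: the exact 95% interval of its 17 h library, for counting error only, was 23.2% to 31.2%, against 29.4% to 33.6% at 19 h with Dox. Ube2c in the same kind of cells was detected in 2.60%, 3.75% and 2.53% at 0, 19 and 30 h with Dox, in 4.71%, 5.67% and 5.71% without Dox in Experiment 2, and in 21.6%, 17.2% and 20.9% in Experiment 1. For Ube2c the Dox libraries were the lowest at each time. All cells here were compared at 10000 UMIs. Over all kept cells there were 2.17, 5.58 and 6.50 Top2a UMIs per Ube2c UMI with Dox, 1.58, 2.03 and 3.09 without Dox, and 1.12, 1.20 and 0.9997 in Experiment 1. Among cells with 10 or more members the ratio at 19 and 30 h with Dox was 3.20 and 2.87, and among the rest 12.5 and 21.1. The libraries with Dox at 19 and 30 h are also among the 3 with many cells under 1% mitochondrial UMIs, and in cells of 1% to 10% mitochondrial UMIs with under 10 members Top2a was detected in 32.4% and 32.9%. The difference between the genes was not tested.

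**Figure D5:**
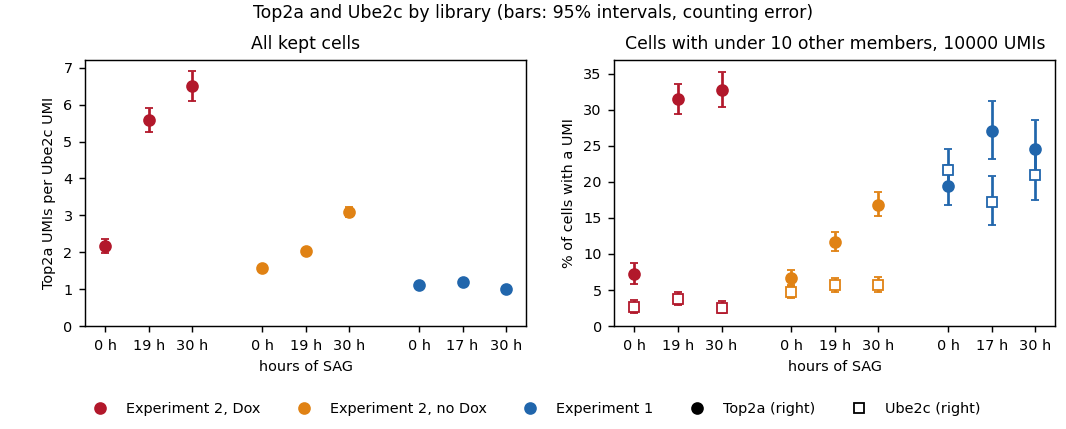
Left, Top2a UMIs per Ube2c UMI over all kept cells of each library; right, share of cells with under 10 other members, thinned to 10000 UMIs, in which Top2a (filled circles) or Ube2c (open squares) had a UMI; bars are 95% intervals that cover counting error only. The Dox libraries at 19 and 30 h stand highest on the left at 5.58 and 6.50 and on the right at 31.5% and 32.8% for Top2a, while Ube2c there stays under 4%.

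Cells with 10 or more members differed from the rest in other readouts as well. Their median UMI count before thinning was 1.40 times that of the rest (median of the 9 ratios, range 1.12 to 1.82). At equal depth they held 5.07 times the UMIs of the 98 other mitosis genes (higher in 9 of 9 libraries), 4.30 times those of 50 DNA replication genes (9 of 9) and 7.08 times those of 67 histone genes (9 of 9). A list of 17 genes stood at 1.15 times (8 of 9). It holds D cyclins, CDK inhibitors, Cdk4, Cdk6 and genes of the Rb and Myc families. The Hedgehog target Gli1, detected at 0 h in at most 0.240% of the rest, was detected in a smaller share of them in all 6 SAG-treated libraries. With Dox it had a UMI in 7 of 97 such cells (7.22%) against 21.3% of the rest at 19 h, and in 8 of 66 (12.1%) against 26.9% at 30 h. Without Dox in Experiment 2 the shares were 5 of 222 (2.25%) against 7.41% at 19 h, and 0 of 107 against 17.0% at 30 h. By a limit of 3 counts, 0 of 107 allows a share of up to 2.80% of cells with a Gli1 UMI at 10000 UMIs, which does not limit the share of cells that express it. In Experiment 1 they were 1 of 49 (2.04%) against 10.1% at 17 h and 1 of 61 (1.64%) against 4.82% at 30 h. Ptch1, the Hedgehog receptor and likewise a target, was detected in 19.6% and 19.7% of cells with 10 or more members at 19 and 30 h with Dox, against 53.4% and 62.1% of the rest, and in 12.2% and 9.35% without Dox in Experiment 2, against 21.8% and 39.2%. In Experiment 1 its shares were 6.12% against 18.8% at 17 h and 8.197% against 10.4%, nearly level, at 30 h. At 0 h they were 7.27% against 3.31% with Dox, 1.53% against 2.07% without Dox in Experiment 2 and 7.32% against 5.03% in Experiment 1. The cells were grouped by measured values, and these differences were not tested.

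Outside the members, 7002 genes were ranked by how their counts followed the number of members across thinned cells (Pearson's r of log2(count + 1), median of 9 libraries, a description over cells that share a library). The closest were Prc1 (0.79), Pclaf, a partner of the replication clamp PCNA (0.64), Stmn1, which destabilises microtubules (0.59), Pttg1 (0.58), Racgap1, a part of the centralspindlin complex (0.56), and H2afz, the histone variant H2A.Z (0.51). Cenpm, Tk1, Rangap1, Hist1h2ap, Ckap2 and Knstrn followed at 0.50 to 0.44. The most negative were Rpl39 (-0.32), Gabarap (-0.31), Itm2b (-0.30), Fn1, which encodes fibronectin (-0.30), Rps21 (-0.28) and Tpt1 (-0.26), all weak.

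Under Dox, where all values were below 0, longer members tended to have less negative ones, and at 30 h of SAG higher ones. Across the 40 members, Pearson's r of the log2 change with log2 exonic length was 0.31 and 0.45, beside 0.24 and 0.24 across all genes with a length. Genes are not independent replicates, and the part of length or RNA quality in these changes was not tested. The exons of 7 members (Ccna2, Cdca8, Cdc20, Ube2c, Nusap1, Tacc3 and Kif20a) overlap exons of a counted gene on the opposite strand. The use of strand in the counting is not given in the sources used here, so the counts of these 7 are less certain, as are those of Cks1b, of which mice carry a near-identical retrocopy.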

How the data were processed

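Per the labels, 9 libraries of NIH3T3-CG cells were made with the 10x Genomics 3' v3.1 protocol. The deposited matrices hold UMI counts for each gene in each barcode on mm10, made by the authors with Cell Ranger per the submitters' processing notes, version 3.1.0 in Experiment 1 and 6.0.1 in Experiment 2 per the file headers. Genes were joined by identifier (30407 shared, 597 with a changed symbol). Features not shared held 0.0701% to 0.832% of UMIs. The limit of 10% mitochondrial UMIs removed 25.9% to 46.3% of barcodes with 5000 UMIs or more. No doublet caller was run.

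Counts were summed per library and tested with edgeR 4.0.16 in R 4.3.3 (filterByExpr, TMM, quasi-likelihood F test, Benjamini-Hochberg over all genes tested). For SAG and experiment the terms were condition (6 levels) and experiment over 9 libraries, and for Dox they were SAG time and Dox over the 6 libraries of Experiment 2, with 2 residual degrees of freedom each. DESeq2 1.42.0 was an alternative. The fits were tested on simulated data. The experiment number in the labels pairs the libraries without Dox and was used as a term over the 9 libraries, though the sample titles name no batch. Deviations of times correlated within an experiment (r = 0.840, 0.709 and 0.835 over 14354 genes). This follows from a difference between the experiments and does not show its source. Cells were thinned to 10000 UMIs with numpy 2.4.6, intervals computed with scipy 1.17.1 and tables with pandas 2.3.3 in Python 3.11.15. Correlations across cells left out genes averaging under 0.05 UMIs in thinned cells.

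Members, lists and tests were chosen with earlier results of these data known. The 10-member limit and the fit with library sizes alone were added after the data were seen. Named in full are up to 8 called members per comparison and direction by p, or, with fewer than 4 called, the members with the largest values. Outside the members, up to 4 called genes per direction are named.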

Additional observations from a re-analysis of the deposited data

Results flagged for a closer look

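On the TMM scale the course of the members over SAG time ran in opposite directions in the experiments. From 0 h to 17 to 19 h the median log2 change of TMM-scaled CPM was -0.18 in Experiment 2 without Dox and 0.072 in Experiment 1. From 0 to 30 h it was -0.35 in Experiment 2 without Dox and 0.30 in Experiment 1. The difference was not tested, and each arm has 1 library a time. On the CPM scale the signs were not opposite, with medians of 0.036 in Experiment 2 without Dox and 3.7e-05 in Experiment 1 at 17 to 19 h, and 0.10 and 0.23 at 30 h.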

How the results depend on the processing

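The count of members called at 30 h of SAG was 0 and stayed 0 without the replicate block, with library sizes alone and with DESeq2, was 1 with additive terms (Cks2), and ran from 0 to 3 with a library left out. Left-out fits could not be given for the difference with Dox without its 0 h or 30 h Dox library. With Dox, 35 members were called, 7 with library sizes alone, 1 without the SAG time term, 17 with additive terms over all libraries, 31 to 36 under the other settings, and 26 to 34 with a library left out. Between experiments 24 were called, and 13 to 28 with a library left out. For most of these settings the share of all genes called is not given, so the changes in count are not read as particular to the members. Causes were not tested.

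With library sizes alone, log2 values under Dox turned positive for Cks1b (0.060), Tpx2 (0.19), Bub3 (0.11), Kif20a (0.021), Top2a (0.14), Mki67 (0.34) and Anp32e (0.16). With a library left out, Top2a under Dox ranged from -0.42 to 0.042. Between experiments the ranges were -0.31 to 0.043 for Cks1b, -0.49 to 0.21 for Cks2, -0.63 to 0.14 for Birc5, -0.51 to 0.21 for Cenpf, -0.25 to 0.0125 for Kif2c, -0.69 to 0.16 for Nusap1 and -0.35 to 0.24 for Kif23, none called with all libraries. For Cdca8 at 30 h of SAG it was -0.088 to 0.63.

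The share of cells with 4 or more members was 3.42 points higher in SAG-treated libraries than at 0 h, 0.0509 to 7.12 with a library left out, and 11.96 unthinned. Dox minus no Dox was 0.99 points, -0.47 to 3.02 with a library left out, -5.39 at 5000 UMIs, 15.6 unthinned, 5.08 with 3 members and -3.06 with 6. Experiment 2 minus Experiment 1 was -27.7 points, -29.3 to -25.0 with a library left out, -7.34 at 5000 UMIs, -35.1 with 3 members, -9.35 with 6 and -2.59 with 10.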
